A study of Mus musculus with 4 samples.

Results

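Described here are 9 genes of the NF-kB system, of the 32285 genes in the deposited tables. They were chosen by symbol: the subunit genes Nfkb1, Nfkb2, Rel and Relb, the IkB family genes Nfkbia, Nfkbid, Nfkbiz and Bcl3, and Tnfaip3, the gene of A20. They were followed in 14129 T cells from tumors, called from their own RNA as Cd4, Cd8 or Foxp3 cells and split by Ccl5, a chemokine of effector T cells, at 20 unique molecular identifiers (UMIs) per cell. The samples were 4 droplet libraries of live CD3+ T cells sorted from subcutaneous tumors of wild-type C57BL/6J mice, which per the study's methods were 6-week-old males when injected. Every tumor grew from the 105K line of mouse kidney tumor cells, which lacks Tsc2. Tumor cells of the control group (sh-NC, 2 libraries) expressed a short hairpin with no target, and those of the knockdown group (sh-B7-H3 (1), 2 libraries) a hairpin against Cd276, which encodes the checkpoint protein B7-H3. The hairpins were carried by mixed pools of transduced tumor cells and not by the T cells or the host.

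According to the labels each group was a pool of 80 tumors, sorted once and loaded on duplicate lanes, whereas a legend of the paper counts independent samples. The labels were followed, so every p-value speaks of these 2 pools and of the spread between their lanes, which may be technical. Any difference in handling between the pools cannot be told apart from the knockdown.

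NF-kB proteins act as pairs, made of RelA, c-Rel (Rel), RelB, p50 (cut from the Nfkb1 product) and p52 (cut from the Nfkb2 product). In resting T cells the pairs are held in the cytoplasm by inhibitors such as IkB-alpha (Nfkbia), and signals from the T cell receptor or from receptors of the TNF family lead to the destruction of this inhibitor. Nfkbia and Tnfaip3, whose product A20 edits ubiquitin on signaling proteins, are themselves switched on by NF-kB and close the loop, while the nuclear IkB proteins encoded by Nfkbid, Nfkbiz and Bcl3 tune which targets are transcribed. In regulatory T cells, the Foxp3+ cells that restrain immune responses, c-Rel and IkB-NS (Nfkbid) are known to act in the induction of Foxp3.

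The promoters of these genes are shown because the genes are known as targets of the pathway itself. Promoter windows, from 250 bases before to 50 after a transcript start, were given for 6 of the 9 genes (RefSeq, GRCm38.p6), and each of these 6 genes had a window with the kB consensus, the decamer motif bound by NF-kB pairs. Both strands were searched, and matches may overlap. The consensus was held by 8 of the 11 windows of these genes and by 8.46% of all 32851 windows. The Nfkb2 windows starting at 46305445 and 46305680 overlap and share the match at 46305705 to 46305714. It is the only match of the second of them, so the windows are not independent. A match is a description of the letters, not a site shown to be bound. Nfkb1, Relb and Nfkbiz had no window in the table. A match is shown for each gene, in capitals, 5′ to 3′ on the gene's strand, with 10 bases on either side.
Nfkbia, chr12:55492657-55492686, minus strand: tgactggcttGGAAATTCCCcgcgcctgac
Tnfaip3, chr10:19015403-19015432, minus strand: aatttccatcGGAAATCCCCctgttggcaa
Rel, chr11:23771041-23771070, minus strand: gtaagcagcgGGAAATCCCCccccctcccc
Nfkb2, chr19:46304716-46304745, plus strand: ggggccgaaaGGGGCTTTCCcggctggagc
Nfkbid, chr7:30422215-30422244, plus strand: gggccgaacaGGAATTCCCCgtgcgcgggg
Bcl3, chr7:19822734-19822763, minus strand: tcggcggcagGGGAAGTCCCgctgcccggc

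Counted from the start base of its own window as 0, the match shown began at base -29 in Nfkbia, -12 in Tnfaip3, -11 in Nfkb2, -91 in Rel, -181 in Nfkbid and 2 in Bcl3. Nfkb2, Nfkbid and Tnfaip3 had more than 1 window, and the other windows of Nfkbid and Tnfaip3 held no match. The matches shown for Nfkbid, Nfkb2, Tnfaip3 and Bcl3 lie inside the gene positions given below, which can begin at another start. The Tnfaip3 window with the match shown was the only one of the 11 that also held the AP-1 motif, TGACTCA or TGAGTCA, which 5.2% of all windows held. Because Nfkbia differed between the groups in more classes than the other 8 genes, the 250 bases before its start are printed with the match in capitals.
Nfkbia, chr12:55492648-55492897, minus strand: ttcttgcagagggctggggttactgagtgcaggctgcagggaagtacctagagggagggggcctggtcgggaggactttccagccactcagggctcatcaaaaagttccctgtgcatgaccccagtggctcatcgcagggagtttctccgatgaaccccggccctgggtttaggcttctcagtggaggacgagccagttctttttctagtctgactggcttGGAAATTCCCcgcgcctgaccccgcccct

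All 9 genes are protein-coding (GENCODE vM21, GRCm38). Nfkbia lies on chromosome 12 (55489410 to 55492647), Tnfaip3 on chromosome 10 (19000910 to 19015657), Rel on chromosome 11 (23736847 to 23770970) and Nfkb1 on chromosome 3 (135584655 to 135691547). Chromosome 7 holds Relb (19606217 to 19629438), Bcl3 (19808462 to 19822770) and Nfkbid (30421732 to 30428746), while Nfkb2 lies on chromosome 19 (46304320 to 46312385) and Nfkbiz on chromosome 16 (55811375 to 55838899). The annotated gene Gm43430 overlaps Nfkb1 on the same strand, so reads of the overlap cannot be assigned with certainty.

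The libraries held 7030 to 12112 called cells and 79224898 to 132820909 RNA UMIs. After the filters 3058 to 6323 cells per library remained, with a median of 6408.5 to 8289 UMIs. Control libraries 1 and 2 and knockdown libraries 1 and 2 gave, in this order, 1684, 1376, 455 and 610 Ccl5-low Cd4 cells, and 140, 139, 410 and 525 Ccl5-high Cd4 cells. Ccl5-low Cd8 cells numbered 2258, 1826, 411 and 620, and Ccl5-high Cd8 cells 380, 424, 726 and 940. Ccl5-low Foxp3 cells numbered 357, 325, 217 and 230, and Ccl5-high Foxp3 cells 15, 15, 21 and 25, too few for a test. Libraries shared 17 to 35 cell barcodes per pair.

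Cd8a and Cd8b1 set the lineages, so their levels are no check of the class names. With Runx3 they summed to 1764 to 1798 CPM (counts scaled to a fixed library total) in Ccl5-low Cd8 cells of the control libraries, to 69.4 to 71.1 CPM in Ccl5-low Cd4 cells and to 475 to 486 CPM in Ccl5-high Cd4 cells. All 6 T cell markers were detected in every class. The CD4 surface tag without the CD8b tag was read on 69.6, 78.3, 66.8 and 58.0% of Ccl5-low Cd4 cells (control 1, control 2, knockdown 1, knockdown 2). It was read on 74.8, 82.2, 69.6 and 54.3% of Ccl5-low Foxp3 cells and on 87.8 to 95% of Ccl5-high Cd4 cells. The CD8b tag alone was read on 72.5 to 86.9% of Ccl5-low Cd8 cells. The 11 myeloid markers summed to 66.3 to 773 CPM over the 5 tested classes, with Adgre1 at 0 in control Ccl5-high Cd4 cells and Csf1r at 0 in control Ccl5-high Cd8 cells, and with Lyz2 in 0.589% of Ccl5-low Cd4 cells of the control libraries and 1.67% of those of the knockdown libraries at 2000 UMIs per cell. Cd276 had 9 to 11 UMIs in all called cells of a library, and since the hairpin acts in tumor cells these counts check nothing. Gm42418, which carries ribosomal RNA sequence, stood at 4974 to 5898 CPM in the control libraries and at 27710.3 to 31191 CPM in the knockdown libraries over the 5 tested classes. Over these classes the median mitochondrial share was 2.14 to 3.53% in the control and 2.71 to 4.22% in the knockdown libraries. Malat1 stood at 15267 to 16378 CPM in control and 17895 to 19165 CPM in knockdown Ccl5-high Cd8 cells. For both measures the knockdown libraries lay above the control libraries in each of these classes. The part of Gm42418 and of these measures in the differences below was not tested.

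The levels of the 9 genes were read as UMIs summed over the cells of 1 class in 1 library, in CPM with TMM scaling, which sets the trimmed mean of the gene ratios between sums to 1. A sum does not tell whether fewer cells carry a transcript or each cell carries less. UMIs were counted near the 3′ end of transcripts, so levels of different genes are not ranked against each other. A gene was called at an adjusted p under 0.05 (edgeR quasi-likelihood test, Benjamini-Hochberg over all genes tested) together with a change of at least 1.5-fold. The share of all tested genes that met the same rule is given as the background beside the counts of the 9 genes, and once per comparison for the other lists.

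The 9 genes stood higher in Foxp3 cells than in Cd4 cells when Ccl5 was low. Against Ccl5-low Cd4 cells of the same libraries, Ccl5-low Foxp3 cells were higher for all 9 genes at an adjusted p under 0.05, where 20.9% of all tested genes were higher by that rule. Of the 9, 5 were also past the 1.5-fold limit (background 12.8% called higher): Bcl3, Nfkb2, Nfkbia, Tnfaip3 and Relb. The median log2 fold change of the 9 was 0.65, and that of all tested genes -0.04. The classes also differed in state. Of 7 resting markers 6 were called lower in Foxp3 cells, where 10.5% of all tested genes were. Of 7 effector markers 3 were called higher and 2 lower. In the control libraries the effector markers summed to 417 to 519 CPM in Foxp3 cells and 92.0 to 102 CPM in Cd4 cells. The part of state in these differences was not tested.

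Bcl3, a nuclear IkB protein that pairs with p50 and p52, differed most. It stood at 12.8, 14.8, 12.1 and 7.48 CPM in Ccl5-low Cd4 cells (control 1, control 2, knockdown 1, knockdown 2) and at 45.3, 53.9, 51.1 and 45.1 CPM in Ccl5-low Foxp3 cells. The lowest Foxp3 library lay above the highest Cd4 library, and the fold change was 4.21 (log2 2.08, SE 0.13, adjusted p = 1.92e-19). Nfkb2, whose product gives p52 of the alternative pathway, stood at 19.9, 22.3, 19.5 and 24.3 CPM in the Cd4 cells and at 35.6, 57.5, 61.0 and 45.1 CPM in the Foxp3 cells, a 2.27-fold difference (log2 1.18, SE 0.12, adjusted p = 6.98e-12). The Foxp3 libraries spread widely for Nfkb2 without reaching down to the Cd4 libraries.

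Nfkbia was 1.97-fold higher in Foxp3 cells (log2 0.98, SE 0.04, adjusted p = 4.42e-27), with 464, 473, 462 and 406 CPM against 264, 245, 221 and 185 CPM in Cd4 cells. Tnfaip3 was 1.86-fold higher (log2 0.89, SE 0.11, adjusted p = 3.24e-09), with 53.0, 76.4, 63.1 and 65.3 CPM against 31.1, 36.1, 38.3 and 33.4 CPM. Ccl5-high Cd4 cells held 40.0 to 63.2 CPM of Tnfaip3, a range that overlaps that of the Foxp3 cells. Relb, the partner of p52, was 1.57-fold higher (log2 0.65, SE 0.10, adjusted p = 4.04e-07), with 48.2 to 53.5 CPM in Foxp3 cells and 25.4 to 33.8 CPM in Cd4 cells. For these 3 genes, inhibitors and subunit alike, the Ccl5-low Foxp3 and Ccl5-low Cd4 libraries did not overlap.

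The other subunits and nuclear IkB genes were higher by less than 1.5-fold. Nfkb1 stood at 99.0 to 117 CPM in Foxp3 cells and 77.3 to 82.6 CPM in Cd4 cells (1.36-fold, adjusted p = 2.83e-07). Rel stood at 45.8 to 91.3 CPM and 41.6 to 50.8 CPM, and its libraries overlapped between the classes (1.45-fold, adjusted p = 8.07e-06). Nfkbiz, the gene of IkB-zeta, reached 37.0 to 43.7 CPM against 24.8 to 28.7 CPM (1.46-fold, adjusted p = 9.12e-05), and Nfkbid 29.8 to 51.8 CPM against 23.1 to 34.2 CPM (1.31-fold, adjusted p = 0.0087). Nfkbid lost its adjusted p when control library 2 or knockdown library 1 was left out, with adjusted p up to 0.284.

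The Foxp3 class also held other cells' RNA. Its summed myeloid markers were 189 to 773 CPM in the control and 307 to 308 CPM in the knockdown libraries, against 126 to 197 and 291 to 471 CPM in Ccl5-low Cd4 cells. Without cells that carried at least 3 UMIs of myeloid or B cell markers, all 9 genes remained higher in Foxp3 cells at an adjusted p under 0.05. Empty droplets, which hold free RNA, carried 161 to 208 CPM of Nfkbia, 18.2 to 20.3 CPM of Bcl3 and 24.2 to 32.9 CPM of Nfkb2, all under the levels in Ccl5-low Foxp3 cells. Nfkbid stood at 29.3 to 42.2 CPM in empty droplets and at 29.8 to 51.8 CPM in Ccl5-low Foxp3 cells, ranges that overlap. In the few Ccl5-high Foxp3 cells Bcl3 stood at 88.2, 67.7, 72.8 and 36.9 CPM, from 7 to 12 UMIs per library, and no test was made.

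**Figure D1:**
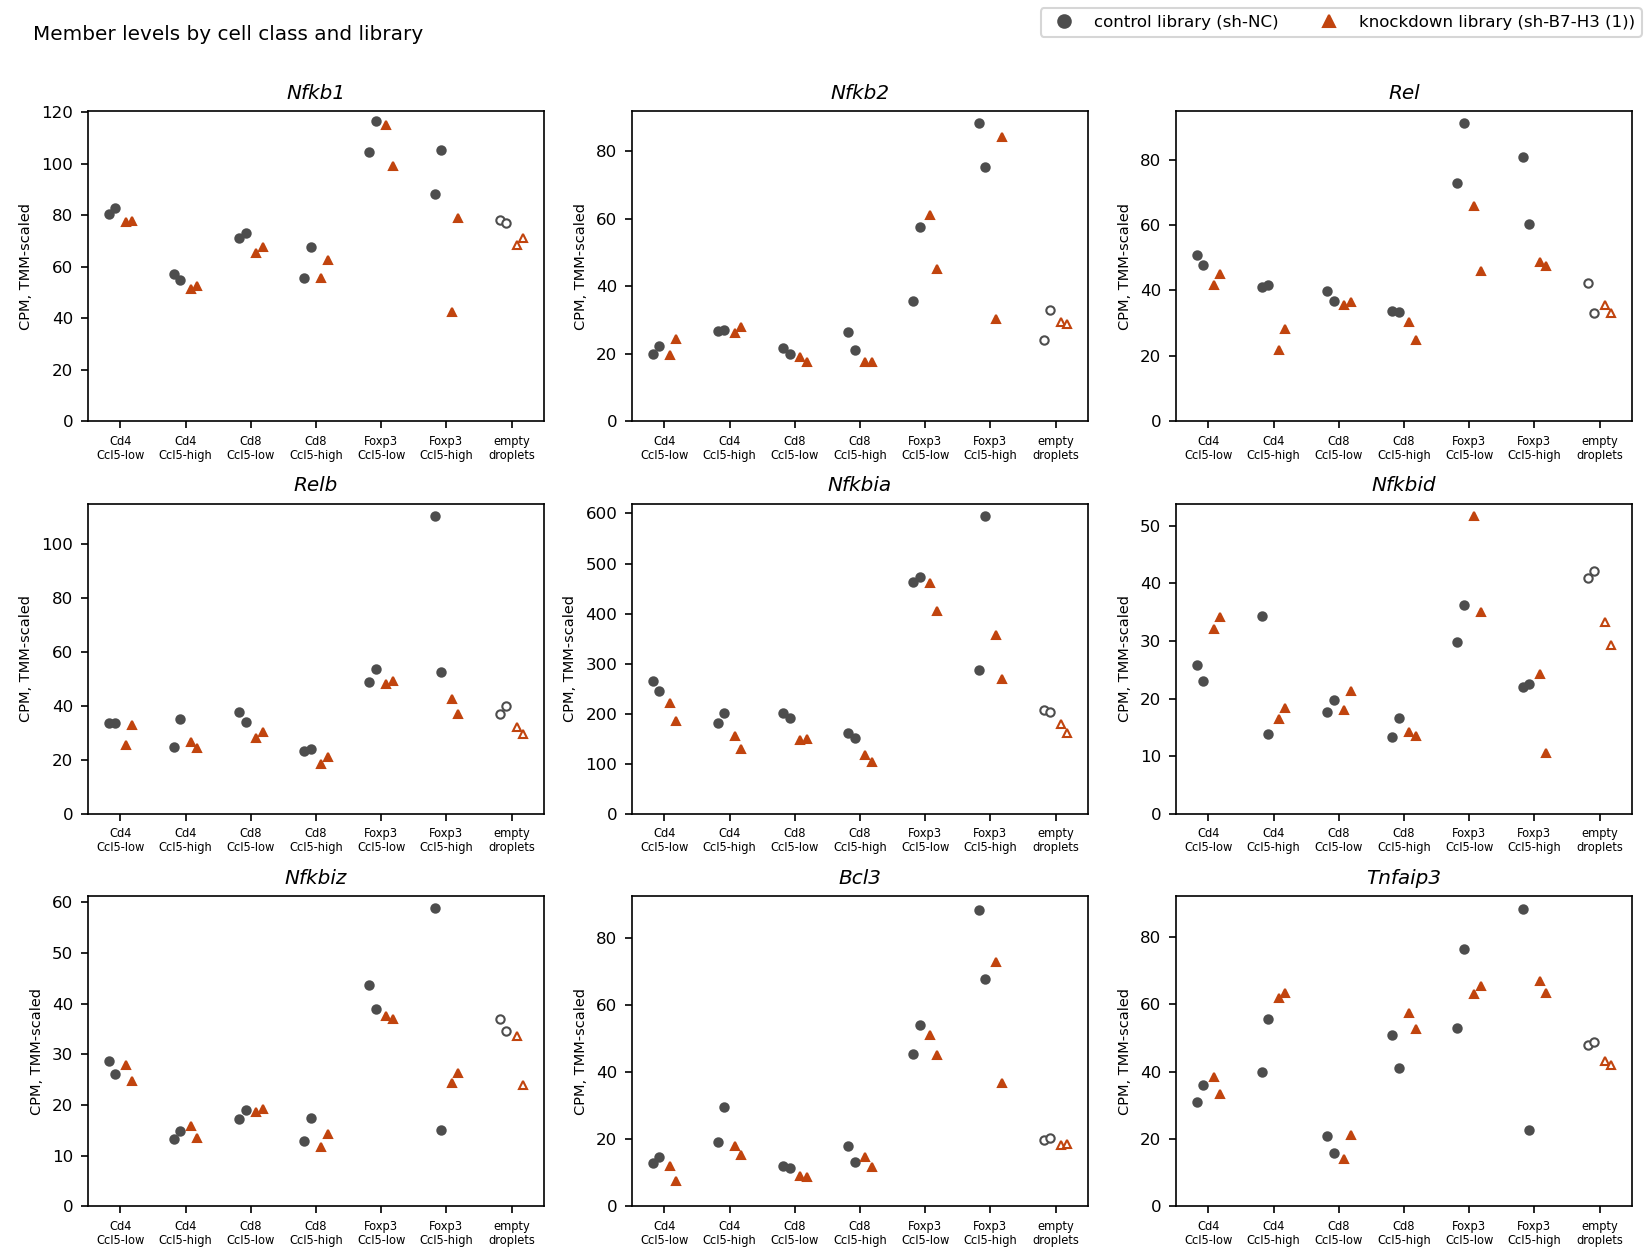
Level of each of the 9 genes (y axis, TMM-scaled CPM from 0) in the 6 cell classes and in empty droplets (x axis), 1 point per library, circles for control (sh-NC) and triangles for knockdown (sh-B7-H3 (1)) libraries, open for empty droplets. Ccl5-low Foxp3 cells lie highest of the 5 tested classes for Bcl3 (45.1 to 53.9 CPM) and Nfkbia (406 to 473 CPM). The Ccl5-high Foxp3 points come from 15 to 25 cells each.

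Between Ccl5 states the 9 genes went in both directions. In Ccl5-high Cd4 cells Tnfaip3 and Bcl3 were higher and Nfkbiz lower than in Ccl5-low Cd4 cells, and 3 of the 9 genes were called where 37.4% of all tested genes were. In Cd8 cells Tnfaip3 was called higher and Relb lower, 2 of the 9 against a background of 32.9%. By adjusted p alone 7 of the 9 differed in Cd4 cells (background 56.4%) and 8 of the 9 in Cd8 cells (background 58%). The called shares did not exceed the background. DESeq2 called 3 of the 9 in Cd4 and 1 in Cd8 cells.

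In Cd4 cells Nfkbiz (1.88-fold) and Bcl3 (1.75-fold) differed most, and in Cd8 cells Tnfaip3 did. In Cd8 cells it stood at 20.9, 16.0, 14.0 and 21.1 CPM when Ccl5 was low and at 50.8, 41.0, 57.4 and 52.7 CPM when it was high, 2.70-fold higher (log2 1.43, SE 0.11, adjusted p = 3.71e-16). In Cd4 cells it went from 31.1, 36.1, 38.3 and 33.4 CPM to 40.0, 55.7, 61.9 and 63.2 CPM, 1.58-fold higher (log2 0.66, SE 0.13, adjusted p = 1.45e-05). The 2 states did not overlap in either lineage, and the difference between the lineages was not tested. Bcl3 was 1.75-fold higher in Ccl5-high Cd4 cells (15.3 to 29.7 CPM against 7.48 to 14.8 CPM, adjusted p = 4.61e-05, or 0.078 on thinned cells) and 1.38-fold higher in Ccl5-high Cd8 cells (11.8 to 17.97 CPM against 8.68 to 11.9 CPM, adjusted p = 0.00637). Empty droplets held 42.0 to 48.7 CPM of Tnfaip3, above every Ccl5-low Cd4 and Cd8 library and inside the range of both Ccl5-high classes. Their 18.2 to 20.3 CPM of Bcl3 lay above every Ccl5-low Cd4 and every Cd8 library and inside the range of Ccl5-high Cd4 cells. The part of free RNA in these differences was not tested.

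The feedback inhibitor Nfkbia went the other way from A20. It was 1.38-fold lower in Ccl5-high than in Ccl5-low Cd4 cells (129.5 to 201 CPM against 185 to 264 CPM, adjusted p = 3.49e-11) and 1.32-fold lower in Ccl5-high Cd8 cells (103 to 161 CPM against 148 to 201 CPM, adjusted p = 1.07e-10), with some overlap of the states across libraries. Nfkbiz fell in Ccl5-high Cd4 cells to 13.3, 14.9, 15.8 and 13.5 CPM from 28.7, 26.2, 28.0 and 24.8 CPM, a 1.88-fold difference without overlap (log2 -0.91, SE 0.15, adjusted p = 1e-06). In Cd8 cells Nfkbiz was 1.31-fold lower (adjusted p = 0.00625). Free RNA of Nfkbiz in empty droplets stood at 23.9 to 36.9 CPM. That range overlaps the Ccl5-low Cd4 libraries and lies above the Ccl5-high ones, and its part in the difference was not tested. Nfkbid was 1.40-fold lower in Cd4 cells (adjusted p = 0.00513) and 1.34-fold lower in Cd8 cells (adjusted p = 0.00776). When a library was left out, Nfkbid lost its adjusted p without control library 2 in Cd4 cells and without knockdown library 2 in Cd8 cells, and in Cd8 cells Nfkbiz and Bcl3 lost it without control library 1. On thinned Cd8 cells Nfkbid, Nfkbiz and Bcl3 lost it too, and Nfkbid also with DESeq2 and with Ccl5 from 10 UMIs. In Cd4 cells Nfkbid lost it as well with looser cell filters and with lineages from surface tags.

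Among the subunits, Relb stood at 23.3, 23.98, 18.5 and 21.2 CPM in Ccl5-high Cd8 cells against 37.6, 34.0, 28.3 and 30.5 CPM in Ccl5-low Cd8 cells, 1.504-fold lower and just past the limit (log2 -0.59, SE 0.10, adjusted p = 1.35e-06). Relb lost its adjusted p on thinned cells (0.0745 at most over the alternatives) and with library-size scaling. Free RNA of Relb in empty droplets stood at 29.6 to 40.1 CPM. That range lies above every Ccl5-high Cd8 library and overlaps the Ccl5-low ones, and its part in the difference was not tested. In Cd4 cells the difference of Relb was 1.15-fold (adjusted p = 0.16). Nfkb1 was 1.48-fold lower in Ccl5-high Cd4 cells (adjusted p = 6.17e-08) and 1.15-fold lower in Ccl5-high Cd8 cells (adjusted p = 0.00604), and Rel 1.44-fold (adjusted p = 0.000107) and 1.24-fold lower (adjusted p = 0.00452). In Cd8 cells Nfkb1 lost its adjusted p without control library 1, without knockdown library 1 and on thinned cells (up to 0.878), and Rel without knockdown library 2 and with Ccl5 from 10 UMIs. In Cd4 cells Rel lost it on thinned cells (0.35). Nfkb2 did not pass in either lineage (adjusted p = 0.0757 and 0.746).

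These directions are those of the TMM scale. In an alternative chosen after seeing the data, scaled by library size alone, the median of all tested genes moved to 0.32 (log2) in Cd4 and 0.37 in Cd8 cells between the states, and the called genes went from 2004 higher and 2049 lower to 3462 and 1231 in Cd4 cells, and from 1872 and 1698 to 3495 and 940 in Cd8 cells. On that scale Nfkb1 (log2 0.17) and Rel (0.06) of Cd8 cells changed sign, Nfkb1 with an adjusted p under 0.05 in the new direction and Rel without, while Tnfaip3 stayed higher in both lineages. Nfkbia (-0.03), Nfkbid (-0.06) and Nfkbiz (-0.02) of Cd8 cells lost their adjusted p on that scale (0.56, 0.745 and 0.899), as did Relb (-0.22), and in Cd4 cells Nfkbid (-0.14) and Rel (-0.18) lost it.

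Cd8 cells held less of several of the genes than Cd4 cells at the same Ccl5 state. Among Ccl5-low cells 6 of the 9 genes were lower in Cd8 cells at an adjusted p under 0.05, and 1 of the 9, Tnfaip3, was called. All tested genes passed these rules in 32.8% and 11.8% of cases, in either direction. Tnfaip3 was 1.86-fold lower in Cd8 cells, 14.0 to 21.1 CPM against 31.1 to 38.3 CPM without overlap (log2 -0.90, SE 0.11, adjusted p = 3.61e-09). Nfkbid, Nfkbiz, Nfkbia, Rel and Nfkb1 were lower by 1.47-, 1.44-, 1.31-, 1.24- and 1.14-fold (adjusted p = 3.99e-05, 2.81e-05, 6.4e-12, 0.00252 and 0.00705). Rel lost its adjusted p without knockdown library 2 and in 3 other alternatives (up to 0.199), Nfkb1 without either knockdown library and in 3 others (up to 0.207), and Nfkbiz on thinned cells (0.0885).

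In the Ccl5-high state no member was called between Cd8 and Cd4 cells by edgeR or DESeq2 (background 11% called), although 5 of the 9 had an unadjusted p under 0.05. At an adjusted p under 0.05 Nfkbia (1.25-fold), Nfkbid (1.42-fold) and Bcl3 (1.41-fold) were lower in Cd8 cells, 3 of the 9 beside a background of 22.3%. Nfkbid lost its adjusted p in 6 of 16 alternatives (up to 0.963), among them without control library 1 and without knockdown library 2, and Bcl3 in 5 (up to 0.646), among them without control library 2 and without knockdown library 2. Nfkbia lost it on thinned cells alone (0.162). Tnfaip3, apart between the lineages in the Ccl5-low state, differed by 1.09-fold here (adjusted p = 0.529). On library size alone the median of all tested genes moved to -0.20 and -0.15 in the low and high states and to 0.27 between Foxp3 and Cd4 cells. The called genes then went from 449 higher and 831 lower to 289 and 1344 in the low state, from 600 and 597 to 417 and 967 in the high state, and from 1390 and 1134 to 2496 and 443 between Foxp3 and Cd4 cells.

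**Figure D2:**
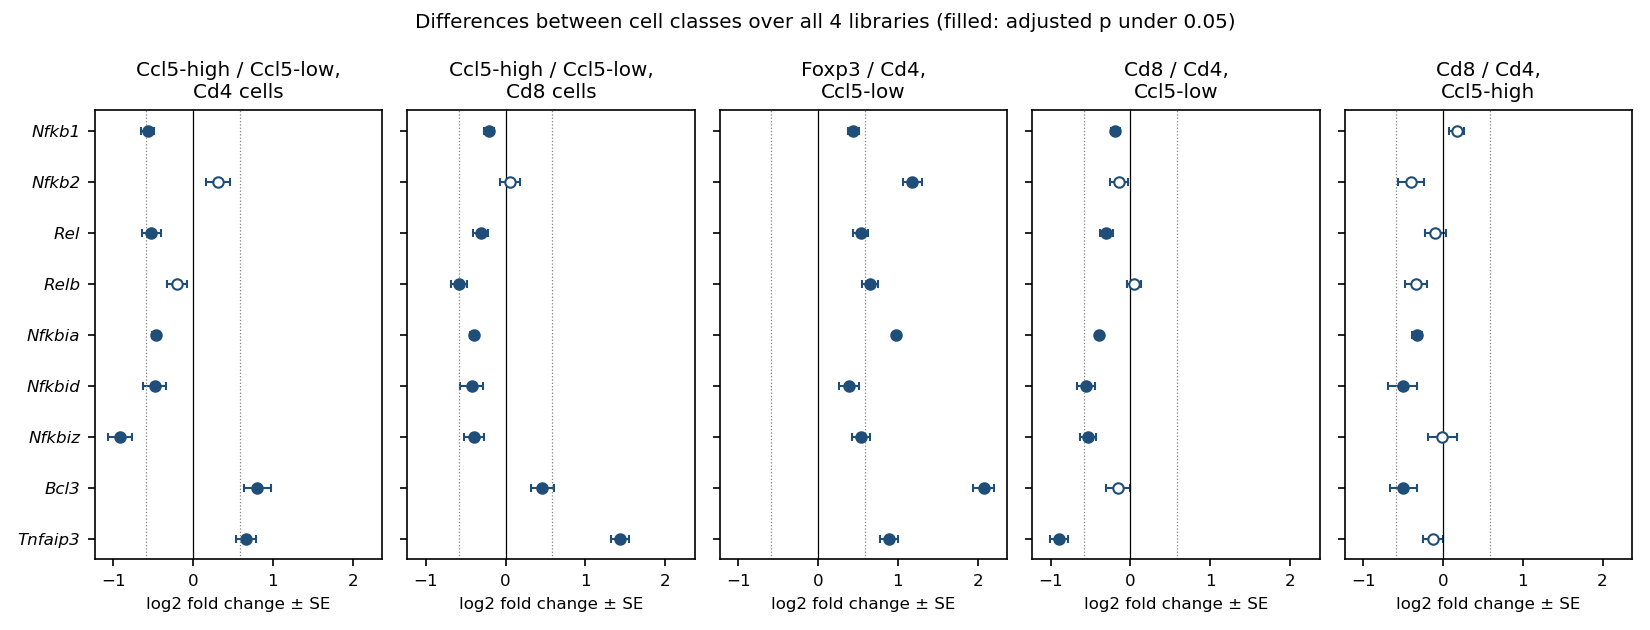
Log2 fold change with its SE (x axis) of the 9 genes (y axis) between cell classes over the 4 libraries, filled where the adjusted p is under 0.05, with dotted lines at the 1.5-fold limit. Foxp3 cells lie to the right of Cd4 cells for all 9 genes, with Bcl3 at 2.08, while between Ccl5 states Tnfaip3 and Bcl3 lie to the right and most others to the left.

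The groups were compared to see how these genes differ in T cells from tumors with and without the hairpin against Cd276. Within a class, Nfkbia was lower in the knockdown libraries in 4 of the 5 tested classes at an adjusted p under 0.05, by 1.27- to 1.43-fold, and in none past the 1.5-fold limit. Rel in Ccl5-high Cd4 cells was the 1 called gene of the 9. The other 7 genes differed by less than 1.5-fold in every class.

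Nfkbia stood at 264 and 245 CPM in the control libraries and at 221 and 185 CPM in the knockdown libraries in Ccl5-low Cd4 cells, 1.27-fold lower (log2 -0.34, SE 0.06, adjusted p = 3.41e-05). In Ccl5-high Cd4 cells it went from 182 and 201 CPM to 155 and 129.5 CPM, 1.36-fold lower (log2 -0.45, SE 0.10, adjusted p = 0.00472). In Ccl5-low Cd8 cells it went from 201 and 191 CPM to 148 and 150.3 CPM, 1.31-fold lower (log2 -0.39, SE 0.05, adjusted p = 2.11e-05). Both knockdown libraries lay below both control libraries in each of these classes. The difference was largest in Ccl5-high Cd8 cells, 161 and 152 CPM against 118 and 103 CPM, 1.43-fold (log2 -0.52, SE 0.07, adjusted p = 2.32e-05). There it kept its adjusted p under all 17 alternatives. Nfkbia lost it in Ccl5-low Cd4 cells without knockdown library 2 and in Ccl5-low Cd8 cells on thinned cells (0.171). In Ccl5-high Cd4 cells it lost it with DESeq2, without control library 2, without knockdown library 2 and on thinned cells. Over the alternatives the log2 change ran from -0.47 to -0.21 in Ccl5-low Cd4 cells and from -0.56 to -0.13 in Ccl5-high Cd4 cells. In Ccl5-low Cd8 cells it ran from -0.47 to -0.27.

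The states of the cells inside a class shifted as well. The 7 resting markers summed to 2145 to 2153 CPM in control and 1684 to 1697 CPM in knockdown Ccl5-low Cd4 cells, and to 452 to 571 CPM and 138 to 157 CPM in Ccl5-high Cd8 cells. The 7 effector markers summed to 92.0 to 102 CPM and 625 to 664 CPM in Ccl5-low Cd4 cells. The part of these shifts in the difference of Nfkbia was not tested.

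In Ccl5-low Foxp3 cells, where Nfkbia is highest, the libraries stood at 464 and 473 CPM and at 462 and 406 CPM, close to each other for 1 library of each group (log2 -0.12, SE 0.07, adjusted p = 0.446). The knockdown effect on Nfkbia in Foxp3 cells was 0.23 (log2, SE 0.08) above that in Ccl5-low Cd4 cells, a difference that did not pass (adjusted p = 0.188), and none of the 9 genes passed this contrast by edgeR or DESeq2 (1 had an unadjusted p under 0.05, background 0.987% called and 1.68% by adjusted p alone). In empty droplets Nfkbia stood at 208 and 204 CPM for the control and at 180.3 and 161 CPM for the knockdown, so the free RNA was lower in the knockdown libraries too. Its part in the difference between cells was not tested.

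Rel is the gene of c-Rel, a subunit that T cells build up after activation. In Ccl5-high Cd4 cells it stood at 41.0 and 41.8 CPM in the control libraries, from 43 and 45 UMIs, and at 21.7 and 28.2 CPM in the knockdown libraries, from 66 and 109 UMIs. The difference was 1.64-fold (log2 -0.72, SE 0.21, adjusted p = 0.0357), from few counts. Free RNA of Rel in empty droplets stood at 42.1 and 33.0 CPM for the control and at 35.7 and 33.0 CPM for the knockdown. Both knockdown libraries of Ccl5-high Cd4 cells lay below these values. The part of free RNA in the difference of Rel was not tested. The call was lost when control library 1, control library 2 or knockdown library 1 was left out. It was also lost without doublet removal, with lineages from surface tags, with a Ccl5 limit of 10 UMIs, without myeloid and B marker cells and on thinned cells. Rel was lower in all 16 alternatives, by log2 -0.55 to -0.95. Rel was also lower in Ccl5-low Foxp3 cells, 72.8 and 91.3 CPM against 65.9 and 45.8 CPM (1.48-fold, log2 -0.56, SE 0.15, adjusted p = 0.0174), where it lost its adjusted p in 10 of 17 alternatives (up to 0.31). These were DESeq2, no filter on low counts, without control library 2, without knockdown library 2, no doublet removal, looser cell filters, Foxp3 from 2 UMIs, Ccl5 from 10 UMIs, without myeloid and B marker cells, and thinned cells. In Ccl5-low Cd4 cells (log2 -0.18, adjusted p = 0.304), Ccl5-low Cd8 cells (-0.09, adjusted p = 0.703) and Ccl5-high Cd8 cells (-0.31, adjusted p = 0.191) it did not pass.

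Nfkbid, whose product IkB-NS binds p50 in the nucleus, was higher in knockdown Ccl5-low Cd4 cells, 32.0 and 34.2 CPM against 25.8 and 23.1 CPM, a 1.36-fold difference without overlap (log2 0.44, SE 0.13, adjusted p = 0.0154). It lost its adjusted p in 5 of 17 alternatives (up to 0.382): DESeq2, without control library 2, without knockdown library 2, lineages from surface tags and thinned cells. Free RNA of Nfkbid in empty droplets stood at 40.9 and 42.2 CPM for the control and at 33.3 and 29.3 CPM for the knockdown. Its part in the difference was not tested. In Ccl5-high Cd4 cells Nfkbid stood at 34.3 and 13.9 CPM for the control and at 16.5 and 18.4 CPM for the knockdown, a spread between controls wider than any difference between groups. Bcl3 was lower in all 5 classes by value (log2 -0.05 to -0.57) and passed in none, with unadjusted p under 0.05 in Ccl5-low Cd4, Ccl5-high Cd4 and Ccl5-low Cd8 cells. Tnfaip3 stood above both controls in both Ccl5-high classes, with 61.9 and 63.2 against 40.0 and 55.7 CPM in Cd4 cells and 57.4 and 52.7 against 50.8 and 41.0 CPM in Cd8 cells, and did not pass (adjusted p = 0.228 and 0.199).

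The share of all tested genes called in these comparisons was 4.12% in Ccl5-low Cd4, 1.84% in Ccl5-high Cd4, 1.8% in Ccl5-low Cd8, 4.2% in Ccl5-high Cd8 and 2% in Ccl5-low Foxp3 cells. By adjusted p alone it was 10.9%, 4.43%, 7.42%, 11% and 4.69%. Of the 9 genes 0, 1, 0, 0 and 0 were called in the same order, and 2, 2, 1, 1 and 1 passed by adjusted p alone. With DESeq2 no member was called in any of the 5 classes, and its adjusted p was under 0.05 for Nfkbia alone, in 3 of them. DESeq2 gave no adjusted p for 0, 8, 5, 5 and 2 of the 9. By unadjusted edgeR p 3, 4, 3, 4 and 1 of the 9 were under 0.05. Scaling by library size alone moved the genes called higher and lower from 81 and 81 to 66 and 156 in Ccl5-high Cd4 cells and from 157 and 35 to 143 and 62 in Ccl5-low Cd8 cells.

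Whether the knockdown acted differently in the 2 Ccl5 states was tested as an interaction. None of the 9 genes was called in Cd4 cells (background 2.74% called, 4.28% by adjusted p alone) or in Cd8 cells (1.73% and 2.87%) by edgeR or DESeq2. In Cd4 cells 2 genes had an unadjusted p under 0.05: Nfkbid, with an effect lower by 0.89 (log2) in the Ccl5-high state (SE 0.32, adjusted p = 0.124), and Rel, lower by 0.52 (SE 0.24, adjusted p = 0.313). In Cd8 cells 0 of the 9 had one. The SE of such a difference ranged at this depth between members, with an SE of 0.09 for Nfkbia in Cd8 cells and 0.34 for Bcl3 in Cd4 cells.

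**Figure D3:**
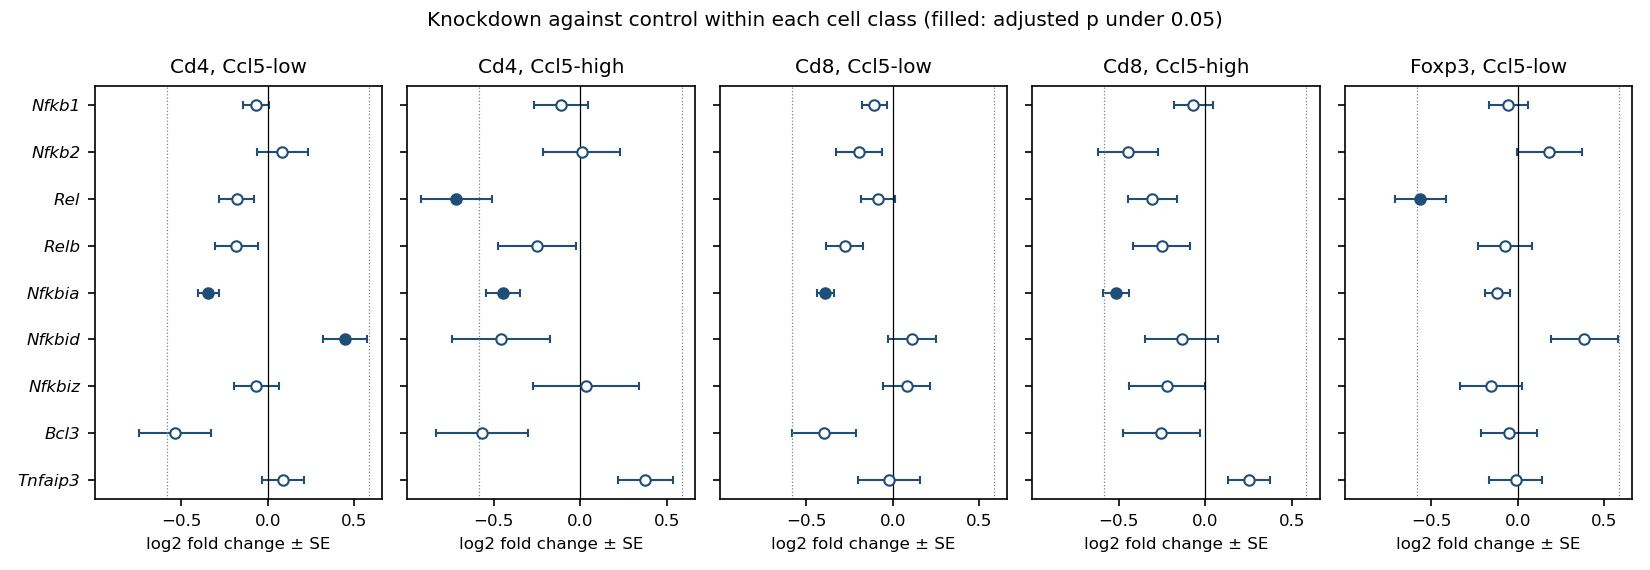
Log2 fold change, knockdown over control, with its SE (x axis) of the 9 genes (y axis) in the 5 tested classes, filled where the adjusted p is under 0.05, with dotted lines at the 1.5-fold limit. Nfkbia lies to the left of 0 in all 5 classes and is filled in 4, and Rel in Ccl5-high Cd4 cells (-0.72) is the 1 filled point beyond the limit.

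Taken as whole lineages, without the Ccl5 split, the 9 genes looked different. Ccl5-high cells made up 7.68 and 9.17% of control Cd4 cells and 47.4 and 46.3% of knockdown Cd4 cells, and 14.4 and 18.8% against 63.9 and 60.3% of Cd8 cells. In all Cd8 cells Tnfaip3 rose 1.76-fold, from 20.1 and 16.5 CPM to 35.5 and 33.9 CPM (log2 0.81, SE 0.09, adjusted p = 1.15e-07). CPM of whole lineages are of the lineage sums, without TMM scaling. Within the states Tnfaip3 was 1.01-fold lower when Ccl5 was low and 1.19-fold higher when Ccl5 was high, and passed in neither (adjusted p = 0.969 and 0.199). Nfkbia fell 1.51-fold in all Cd8 cells, from 157 and 151 CPM to 112 and 106 CPM (log2 -0.60, SE 0.04, adjusted p = 1.7e-10).

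In all Cd4 cells Tnfaip3 was 1.42-fold higher, from 28.4 and 34.2 CPM to 48.9 and 46.1 CPM (adjusted p = 1.74e-05), and Nfkbia 1.48-fold lower, from 230 and 217 CPM to 179 and 149 CPM (adjusted p = 1.22e-11). Rel was 1.43-fold lower in all Cd4 cells, 44.5 and 42.5 CPM against 30.0 and 34.6 CPM (adjusted p = 6.97e-06), and Relb 1.43-fold lower in all Cd8 cells, 28.7 and 26.4 CPM against 19.2 and 21.6 CPM (adjusted p = 3.88e-05). On thinned cells Tnfaip3 in Cd4 cells (0.154) and Relb in Cd8 cells (0.162) lost the adjusted p. In Cd4 cells Relb kept it in 13 of 17 alternatives (up to 0.192) and Nfkbiz in 14 (up to 0.125). In Cd8 cells Nfkb1 kept it in 12 (up to 0.725), Nfkb2 in 10 (up to 0.298) and Rel in 14 (up to 0.0944). Of the 9 genes 0 were called in all Cd4 cells (background 20.6%; DESeq2 also 0, with 6 under an unadjusted p of 0.05) and 2 in all Cd8 cells (18.4%). By adjusted p alone 6 passed in each lineage, beside 43.9% and 44.6% of all tested genes. With DESeq2 4 passed by adjusted p alone in Cd4 and 3 in Cd8 cells. Relb and Nfkbiz in Cd4 cells and Nfkb1, Nfkb2 and Rel in Cd8 cells did not pass there. Of the genes past the adjusted p in a whole lineage, Tnfaip3, Nfkbia, Rel and Nfkb1 also passed it between Ccl5 states of the same lineage, in Cd4 and in Cd8 cells. So did Nfkbiz in Cd4 cells and Relb in Cd8 cells. Relb in Cd4 cells (adjusted p = 0.16) and Nfkb2 in Cd8 cells (0.746) did not pass between the states. On library size alone Rel and Nfkb1 of Cd8 cells changed sign between the states. The part of the share of Ccl5-high cells in the whole-lineage differences was not tested. The comparison of whole lineages was chosen after seeing the data, as was the difference of the knockdown effect between Foxp3 and Cd4 cells. On library size alone the median of all genes moved to 0.10 in both lineages, and the genes called higher and lower went from 1460 and 875 to 1759 and 634 in Cd4 cells and from 1327 and 797 to 1583 and 578 in Cd8 cells.

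In all Foxp3 cells, of which 4.03, 4.41, 8.82 and 9.8% were Ccl5-high over the 4 libraries in the order above, Tnfaip3 stood at 59.4, 80.7, 69.1 and 70.4 CPM and the groups overlapped. Nfkbia stood at 493, 525, 490 and 422 CPM, and knockdown library 1 lay close to control library 1 (log2 -0.16, adjusted p = 0.226). Rel was 1.49-fold lower (adjusted p = 0.00941), short of the limit. It was the 1 of the 9 genes with an adjusted p under 0.05 (background 5.47%), and 0 were called (2.29%). By DESeq2 0 of the 9 genes passed there, with 2 left without an adjusted p, and the other alternatives for this result were not tabulated.

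**Figure D4:**
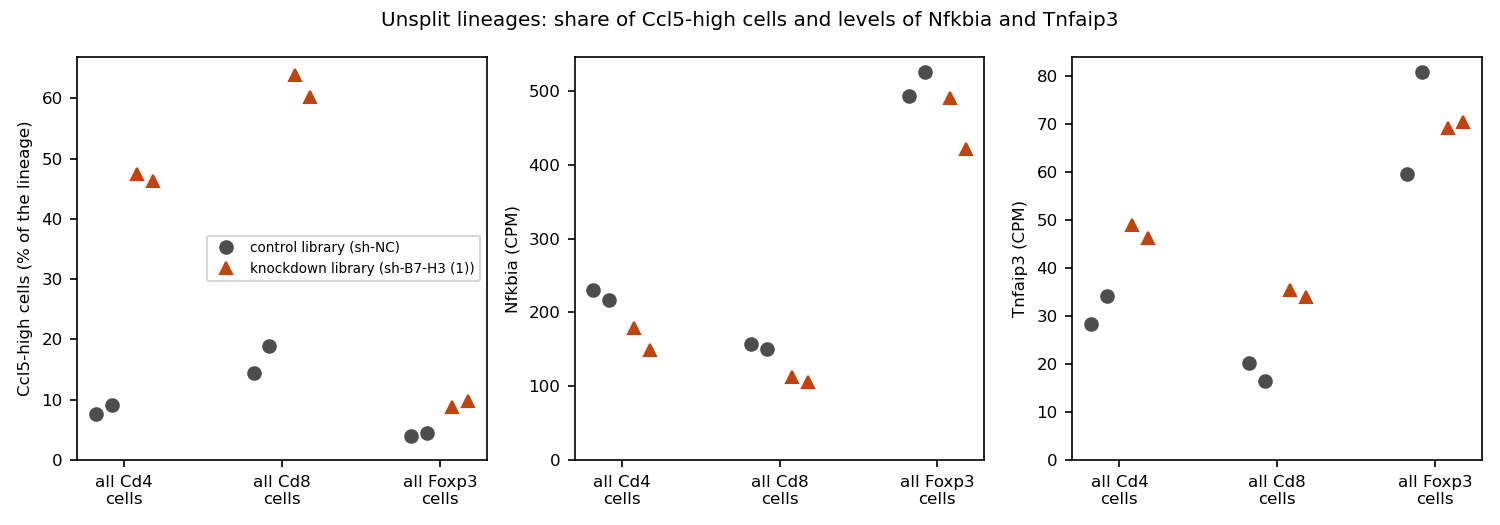
Share of Ccl5-high cells (left, percent of the lineage), Nfkbia (middle, CPM) and Tnfaip3 (right, CPM) in all Cd4, all Cd8 and all Foxp3 cells (x axis), 1 point per library, circles for control and triangles for knockdown. In Cd8 cells the knockdown libraries lie at 60.3 and 63.9% Ccl5-high, with Nfkbia at 106 and 112 CPM below and Tnfaip3 at 33.9 and 35.5 CPM above both controls.

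The share of cells with at least 1 UMI of a gene was compared after every cell was thinned to 2000 UMIs, which left out 0 to 26 shallower cells per class and library. Among Ccl5-low Cd4 cells 30.8 ± 0.559% of the control and 25.2 ± 2.69% of the knockdown group held Nfkbia (mean ± SD, n = 2), as did 21.6 ± 2.48% and 16.4 ± 3.30% of Ccl5-high Cd8 cells. In Ccl5-low Foxp3 cells it was found in 49.95 ± 0.940% and 48.5 ± 0.409%. So Nfkbia was detected in more Foxp3 cells than Cd4 cells in every library. In Ccl5-high Cd4 cells the shares were 23.6 ± 3.94% and 23.1 ± 1.86% and overlapped, unlike the summed levels.

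Of control Ccl5-high Cd4 cells 11.5 ± 1.07% held Rel, against 5.28 ± 0.906% of those of the knockdown libraries. Tnfaip3 was found in 2.57 ± 0.379% of control Ccl5-low and 9.001 ± 0.0248% of control Ccl5-high Cd8 cells, and in 1.55 ± 0.100% and 10.3 ± 0.105% of those of the knockdown libraries. At 1000 UMIs per cell the groups overlapped in both classes. There the shares were 1.56 ± 0.495% (control) and 1.47 ± 0.677% (knockdown) of Ccl5-low and 6.08 ± 0.409% and 5.46 ± 1.30% of Ccl5-high Cd8 cells. Bcl3 was found in 2.46 ± 0.116% of control Ccl5-low Cd4 cells and 9.84 ± 2.23% of control Ccl5-low Foxp3 cells. An exact two-sided permutation test of 2 against 2 libraries cannot go below p = 0.333, so none of these shares could pass between the groups. For comparison, the myeloid gene Lyz2 was found in 0.557 to 4.16% of cells over the same classes by group mean, with 2.08 ± 0.118% and 4.16 ± 0.424% in Foxp3 cells. Intervals from lanes of 1 pool cover the spread between lanes alone.

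The other genes of the pathway, 37 kinases, adaptors, ubiquitin enzymes and further IkB and subunit genes such as Rela, gave 1 call with the knockdown over the 5 classes. None of the 37 was called in Ccl5-low Cd4, Ccl5-low Cd8 and Ccl5-high Cd8 cells or among the 36 tested in Foxp3 cells, by edgeR or DESeq2, with 5, 1, 5 and 2 of them under an unadjusted p of 0.05. In Ccl5-high Cd4 cells 1 of 35 was called: Tbk1, an IkB kinase relative, lower by 0.66 (log2), where DESeq2 called 0. Between Foxp3 and Cd4 cells 7 of 37 were called higher and 3 lower, where 12.8% and 10.5% of all tested genes were. The list was led by Traf1 (1.68), an adaptor of TNF receptors and itself an NF-kB target, and Tnip2 (1.08), a partner of A20, and by Prkcq (-0.89), the kinase that links the T cell receptor to NF-kB. Between Ccl5 states of Cd4 cells 2 were called higher and 6 lower, led by Ikbke (-1.85), Prkcq (-1.61) and Birc3 (-1.19), an inhibitor of apoptosis, and in Cd8 cells 3 and 3, led by Ikbke (-1.06), Tab2 (0.73) and Prkcq (-0.73). Both counts lie below the background of 37.4% in Cd4 and 32.9% in Cd8 cells.

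Of 14 genes of receptors that feed the pathway and of the ligand CD40L, most of the TNF receptor family, 6 of 12 tested were called higher in Foxp3 than in Cd4 cells and 1 lower, beside 12.8% and 10.5% of all tested genes. The receptor of interleukin 33, Il1rl1 (log2 4.82), OX40 (Tnfrsf4, 3.79) and 4-1BB (Tnfrsf9, 3.30) led. Between Ccl5-high and Ccl5-low Cd4 cells 4 were called higher and 5 lower (background 18.5% and 18.9%), led by Cd40lg (-4.71), the ligand of CD40, Tnfrsf25 (-4.17) and Il1rl1 (-4.15). With the knockdown 2 of 12 were called higher in Ccl5-low Cd4 cells, Tnfrsf9 (1.32) and the TNF receptor Tnfrsf1b (1.03), and none lower (background 3.52% and 0.592%). In the other classes 0 to 2 were called higher, and Tnfrsf4 (-1.19) was lower in Ccl5-high Cd4 cells, 1 of 8. In Cd8 cells 4 were called higher and 2 lower between the states (background 17.3% and 15.7%), led by Cd40lg (-3.11), Tnfrsf9 (2.88) and Tnfrsf25 (-2.49).

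Of 26 genes known as NF-kB targets, 22 were tested between Foxp3 and Cd4 cells, with 10 called higher and 3 lower (background 12.8% and 10.5%). Cd83 (3.16), a membrane protein of activated lymphocytes, the chemokine gene Cxcl10 (2.29) and the stress gene Gadd45b (2.17) led. Between Ccl5 states 8 of 22 were called higher and 4 lower in Cd4 cells (background 18.5% and 18.9%), and 11 and 3 in Cd8 cells (17.3% and 15.7%), led in both by the chemokine genes Ccl3 (5.52 and 5.30) and Ccl4 (5.15 and 5.32). With the knockdown 6 of 21 were called higher and 1 lower in Ccl5-low Cd4 cells (background 3.52% and 0.592%), led by Ccl3 (3.18), Ccl4 (2.98) and Cxcl10 (-1.24). In the same class 7 of 9 myeloid markers (median log2 1.54), 4 of 4 MHC class II genes (2.24) and 6 of 7 effector genes (2.50) were called higher, and their part in the target list was not tested. In Ccl5-low Cd8 cells 3 of 21 were called, all higher (background 1.47%): Ccl3 (4.40), Ccl4 (3.77) and the survival gene Bcl2a1d (1.95). In Ccl5-low Foxp3 cells 5 of 19 were called higher and 2 lower (background 1.22% and 0.78%), with Ccl3 (2.96) and Ccl4 (1.21) again ahead. DESeq2 called 5, 1 and 1 of the targets in these 3 classes. Tnf (-0.88) and Ccl4 (-0.72) were the 2 called of 19 in Ccl5-high Cd4 cells, both lower (background 0.922%; DESeq2 1). Ccl3 and Ccl4 are also genes of effector cells, as Ccl5 is, and Ccl5 itself within the Ccl5-low classes was 30.9 and 33.2 CPM in the control and 313 and 361 CPM in the knockdown Cd4 cells. The median change of the target list with the knockdown was 0.03 (log2) in Ccl5-low Cd4 cells, 0.01 in Ccl5-low Cd8 cells, 0.28 in Ccl5-low Foxp3, -0.04 in Ccl5-high Cd4 and 0.05 in Ccl5-high Cd8 cells, with the median of all tested genes between -0.00327 and 0.00665. In Ccl5-high Cd8 cells 2 of 20 were called higher and 3 lower (background 1.88% and 2.31%; DESeq2 3 in all), led by Lta (-1.26), Cxcl10 (-1.13) and Ccl3 (0.77).

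Immediate-early genes, which respond to activation and to the handling of tissue, differed between the groups in both directions. Of 21, 4 of 20 tested were called lower and 2 higher with the knockdown in Ccl5-low Cd8 cells (background 0.327% and 1.47%), with Nr4a2 (2.51), Fos (-1.59) and Nr4a3 (1.15) largest, and 5 of 19 lower and 1 higher in Ccl5-high Cd8 cells (2.31% and 1.88%). In Ccl5-low Cd4 cells 3 of 20 were lower and 2 higher, in Ccl5-high Cd4 cells 1 of 19 was lower (Dusp1, -1.04), and in Ccl5-low Foxp3 cells 4 of 20 were higher and 1 lower. Of these genes DESeq2 called 2 in Ccl5-low Cd8, 3 in Ccl5-high Cd8, 4 in Ccl5-low Cd4, 0 in Ccl5-high Cd4 and 1 in Ccl5-low Foxp3 cells. Between Ccl5 states 1 was higher and 12 lower in Cd4 cells (background 18.5% and 18.9%), and 2 and 8 in Cd8 cells (17.3% and 15.7%). Jun stood at 472 and 472 CPM in the control and 290 and 272 CPM in the knockdown Ccl5-low Cd4 cells. Of the 8 genes responsive to glucocorticoids, hormones under which Nfkbia is known to be induced, 7 were tested, and 2 were called lower in each of the Ccl5-low Cd4 and Cd8 classes, Tsc22d3 (-0.88 and -0.90) and Ddit4 (-0.82 and -0.76). In Ccl5-high Cd8 cells 2 were called lower, Tsc22d3 (-1.28) and Ddit4 (-0.61), and 1 higher, Klf9 (0.96), in Ccl5-low Foxp3 cells Tsc22d3 (-0.71) was the 1 called, and 0 of 7 were called in Ccl5-high Cd4 cells (DESeq2 also 0, with 2 under an unadjusted p of 0.05). Between Ccl5 states 2 glucocorticoid-responsive genes were called higher and 3 lower in Cd4 cells, and 2 and 2 in Cd8 cells. The part of either list in the difference of Nfkbia was not tested.

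Across the 24 class sums the levels of the 9 genes ran together to different degrees. Pearson's r was taken of log2(CPM + 1), here without TMM scaling. Between pairs of the 9 it was highest for Nfkb2 with Bcl3 and for Rel with Nfkbia (0.91 each) and lowest for Nfkbid with Tnfaip3 (0.38). Tnfaip3 had its highest r among the 9 with Bcl3 (0.74). The sums share libraries, depth and 6 cell classes. The TMM scaling factor left out here ran from 0.716 to 1.35 over the sums, a shift that all genes of a sum share. The Ccl5-high Foxp3 sums came from 15 to 25 cells each. These values are therefore a description.

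The genes most like each member were looked up among the 4788 genes that averaged 20 CPM or more, also without TMM scaling. Bcl3 ran closest to Tnfrsf18 (GITR, a receptor of regulatory T cells, r = 0.96), Odc1 (0.96) and Hif1a (0.96), and Tnfaip3 to the activation marker Cd44 (0.97), Ypel5 (0.94) and Cnih4 (0.94). Nfkbia ran closest to Ccs (0.95), Ctss (0.95) and Snx2 (0.95), Nfkb1 to Sp3 (0.95), Sdhaf1 (0.94) and Cbl (0.93), and Nfkb2 to Serp1 (0.96), Rheb (0.96) and Rac1 (0.95). Rel ran closest to Sfr1 (0.94), Sdhaf1 (0.93) and Ldha (0.93), Relb to Plec (0.94), Ldha (0.93) and Chmp3 (0.93), and Nfkbiz to Pbx2 (0.95), Tgfbr1 (0.93) and the AP-1 gene Junb (0.92). Nfkbid had no close match, with Ecm1 (0.80), Csk (0.79) and Cd5 (0.79) nearest. In the 12 sums of the control libraries alone Bcl3 with Tnfrsf18 gave 0.99 and Tnfaip3 with Cd44 0.97, and in the 12 of the knockdown libraries 0.96 and 0.97.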

How the data were processed

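RNA and surface tags of sorted CD3+ T cells were measured in 4 droplet libraries. The authors deposited filtered and raw matrices of UMI counts per gene and cell, made with Cell Ranger 6.1.1 per the file headers against mm10, with STAR and Seurat 4.0.0 in the submitters' processing notes. The deposited counts were used unchanged, and the tags in 1 alternative and in the check of the classes.

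Cells with 200 to 3000 genes and at most 5% mitochondrial UMIs were kept. Doublets were called from their share of simulated doublets among neighbors and removed (12.6 to 16.4% per library). Cd8 cells had at least 3 UMIs of Cd8a plus Cd8b1 and none of Cd4 or Foxp3, Cd4 cells had Cd4, no Foxp3 and at most 1 Cd8 UMI, and Foxp3 cells had at least 1 Foxp3 UMI and at most 1 Cd8 UMI, each split at 20 Ccl5 UMIs. Counts were summed per class and library and tested with edgeR 4.0.16 (TMM, quasi-likelihood test, Benjamini-Hochberg adjustment) in R 4.3.3. DESeq2 1.42.0 was an alternative. Knockdown was tested within each class, and differences between classes in 1 joint fit. The scripts were tested on simulated data. Log2 fold changes are of fitted counts, and depth limits the genes with few UMIs most.

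The 9 genes, the gene lists (other pathway components, NF-kB targets, receptors, immediate-early and glucocorticoid-responsive genes, cell markers) and the tests were chosen with earlier results of these data known. The rule for named genes covered all 9 genes in each comparison, the 3 largest called changes of each list and the 3 genes most like each member. Where the text names fewer, the others are in its counts, with exceptions. These are the lists between Cd8 and Cd4 cells, in the interactions and in whole lineages, and the cell markers in most comparisons. Among Ccl5-low cells 2 of 22 NF-kB targets were called higher and 10 lower in Cd8 than in Cd4 cells (background 4.14% and 7.67%). Between Foxp3 and Cd4 cells 5 of 20 immediate-early genes were called higher and 1 lower, and 1 and 1 of 7 glucocorticoid-responsive genes (12.8% and 10.5%). Same-numbered libraries did not deviate together (r -0.00795 to 0.0458 over genes), so the numbers were not taken as pairs. Alternatives covered scaling, filters, fold limits, doublets, class rules, thinning and leaving out each library.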

Additional observations from a re-analysis of the deposited data

How the results depend on the processing

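Alternatives were tabulated for 52 results of single members with an adjusted p under 0.05, all but Rel in all Foxp3 cells. Of the 52, 50 kept their direction in the alternatives tabulated and 22 also kept the adjusted p. With scaling by library size alone, chosen after seeing the data, Nfkb1 (0.17) and Rel (0.057) between Ccl5 states of Cd8 cells changed sign.

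The counts of called genes that moved by over 1.5 times are given in a fixed order: knockdown in Ccl5-low Cd4, Ccl5-high Cd4, Ccl5-low Cd8, Ccl5-high Cd8 and Ccl5-low Foxp3 cells (438, 162, 192, 403 and 174 as reported). DESeq2 called 197, 33, 28, 107 and 53, thinned cells gave 194, 46, 84, 97 and 35, a limit of 2-fold 290, 83, 123, 201 and 63, and no limit on the fold 1158, 389, 794, 1060 and 409. With Ccl5 from 10 UMIs the first was 247 and the last 85. Ccl5-low Cd8 cells gave 324 without doublet removal, and 96 to 227 when each library was left out in turn (96 without control library 1, 107 without control library 2). Ccl5-high Cd8 cells gave 655 with looser cell filters. Ccl5-low Foxp3 cells gave 98 without a filter on low counts and 75 with Foxp3 from 2 UMIs.

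In all Cd4 and all Cd8 cells (2335 and 2124) no limit gave 4970 and 5142, 2-fold gave 1273 and 1106, and thinned Cd4 cells 1495. Between Ccl5 states of Cd4 and Cd8 cells (4053 and 3570) no limit gave 6116 and 6282, 2-fold 2569 and 2133, and thinned Cd4 cells 2673. For Foxp3 against Cd4 cells (2524) no limit gave 4659 and 2-fold 1379. For Cd8 against Cd4 cells, Ccl5-low and Ccl5-high (1280 and 1197), no limit gave 3560 and 2412, 2-fold 770.0 and 697, and thinning 778 and 614.

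For the interaction in Cd4 cells (297) no limit gave 464, Ccl5 from 10 UMIs 184, thinning 118, and leaving out each library in turn 184 (knockdown library 2) to 233. In Cd8 cells (187) no limit gave 311, DESeq2 119, looser cell filters 290.0 and thinning 55. For Foxp3 minus Cd4 cells (107) no limit gave 182, DESeq2 61, leaving out each library in turn 70.0 (control library 1) to 104, looser cell filters 69, tags 71, Ccl5 from 10 UMIs 66 and thinning 45. The causes of these moves were not tested, apart from the fold limits, which set the count by construction.

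The replicate numbers did not pair the libraries. With the replicate number as a block, 446, 176, 201, 468 and 166 genes were called in the 5 classes, and the 19 member results with an adjusted p under 0.05 in these classes and in all Cd4 and all Cd8 cells kept their direction and call. Members above that limit, and Rel in all Foxp3 cells, were not tabulated under the block. Shares of cells moved by over 1 SD in 38 of 90 recalculations at other depths, and the likeness of genes in 1 of 53. Members with few UMIs, such as Bcl3 and Nfkbid in Ccl5-high cells, are limited by depth.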
